A study of Mus musculus with 6 samples.

Results

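The glutathione and thioredoxin redox genes are 10 genes given by symbol: Gclc, Gclm, Gss, Gsr, Gpx1, Gpx4, Gstm1, Txn1, Txnrd1 and Prdx1. All 10 were found among the 24537 genes listed for every library, each with a value in all 6. Of the 10, 8 averaged 1 FPKM or more over the 6 libraries (FPKM is a fragment count divided by transcript length and library size) and entered the test over all genes, which covered 6358 genes. Gss and Txnrd1 lay below that minimum and were described by their levels. Total RNA came from cerebella of males aged 6 weeks. One group of 3 libraries was labelled wild type with the strain C57BL/6, and the other group of 3 was labelled Reln heterozygous, for a null allele of Reln, with the strain Orl/BalbC. Genotype and labelled strain differed together in every library and cannot be told apart. Whether each library is a separate animal is not stated, so p-values refer to the spread between these libraries, which may be technical. Library values are listed below in the order of replicates 1, 2 and 3.

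Glutathione is a small thiol that buffers the redox state of the cell. For its synthesis, glutamate-cysteine ligase, built from the catalytic subunit Gclc and the modifier subunit Gclm, joins glutamate and cysteine, and glutathione synthetase (Gss) adds glycine. Glutathione peroxidases use it to reduce peroxides, glutathione transferases couple it to reactive compounds, and glutathione reductase (Gsr) returns the oxidised form to use with electrons from NADPH. The thioredoxin branch runs in parallel: thioredoxin (Txn1) reduces protein disulfides and peroxiredoxins such as Prdx1, and is itself recycled by the selenoprotein thioredoxin reductase (Txnrd1). In brain, glutathione is abundant in astrocytes, which also supply its precursors to neurons. Many genes of both branches are known targets of Nrf2 (Nfe2l2), a transcription factor that binds the antioxidant response element together with a small Maf protein.

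Promoter windows are shown first because this element is a known regulatory feature of several of these genes. The RefSeq windows (GRCm38.p6, from 250 bases before to 50 after a start site) covered 8 of the 10 genes with 14 windows, and Gclc and Gsr had no entry. The letters TGACNNNGC were searched on both strands, where N is any base and GCNNNGTCA is the same motif read from the other strand. They were found in 3 of 14 windows, against 12.4% of all 32851 windows. Counted by gene, 3 of 8 held them in at least 1 window, against 14.9% of the 17636 measured genes with a window. The stretches below are read on the plus strand, 5′ to 3′, with the match in capitals; each match lies on the minus strand. They are chr3:122245397-122245457 for Gclm, chr4:116685440-116685500 for Prdx1 and chr10:82859088-82859148 for Txnrd1.
Gclm: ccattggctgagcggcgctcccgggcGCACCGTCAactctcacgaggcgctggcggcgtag
Prdx1: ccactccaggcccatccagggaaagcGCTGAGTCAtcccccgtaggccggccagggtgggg
Txnrd1: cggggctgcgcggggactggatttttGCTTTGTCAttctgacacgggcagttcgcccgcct
The first base of the match lay at -134 for Gclm, -133 for Prdx1 and -92 for Txnrd1, counted from the start site of that window. The match in Prdx1 also holds TGAGTCA, the letters of an AP-1 site, so the motifs overlap there. The Txnrd1 match belongs to an internal start site within the gene. A match of letters is a description and no binding was measured here. The 3 genes with a match spanned differences of 0.04 to 0.30 on the log2 scale given below, and the searched genes without a match spanned 0.09 to 0.21. Gclc (0.05) and Gsr (0.07), which had no window, belong to neither set.

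The checks on the libraries were as follows. Reln measured 0.834, 0.771 and 0.940 FPKM in the wild-type libraries and 0.531, 0.509 and 0.580 in the heterozygous ones, so every heterozygous library lay below every wild-type one. The means were 0.848 ± 0.086 and 0.540 ± 0.037 FPKM (SD, n = 3 each; two-sided exact permutation p = 0.1, the smallest that 3 against 3 libraries allow), and Reln was too low for the test over all genes. The granule cell gene Gabra6 ranged from 53.7 to 68.3 FPKM and the Purkinje cell gene Pcp2 from 122 to 175 FPKM over the 6 libraries, so both defining neurons of the tissue were represented. Steps between low FPKM values gave depths of 0.801 to 1 relative to wild-type replicate 3, the deepest library. The heterozygous mean was the higher one for 83.1% of the 6358 tested genes as deposited and for 49.1% after median-of-ratios scaling, which sets the typical gene equal between libraries. The median difference over all tested genes was 0.08 as deposited and -0.001 after scaling. Wild-type replicate 2 was the lowest library for 78.4% of tested genes and heterozygous replicate 2 the highest for 56.3%. In a bulk sample, fewer cells of a type and less RNA per cell cannot be told apart.

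In wild-type and heterozygous cerebellum the 10 genes had the same order of mean level, with peroxide and conjugation enzymes at the top and glutathione synthetase (Gss) at the bottom. FPKM is scaled per length, so levels can be compared between genes as far as the transcript lengths used hold. Those lengths are not known here. The longest and median coding transcripts have 5589 and 1002 bases for Gclm, and 2294 and 661 for Prdx1. Small steps in the order are thus uncertain. Gpx1, the cytosolic glutathione peroxidase, had the highest mean over the 6 libraries, 37.4 FPKM, with only 221 of 24537 genes above it. Gstm1, a mu-class transferase, followed at 29.5 FPKM, and Gpx4, which reduces lipid peroxides in membranes, at 26.4 FPKM. Gstm1 lay above Gpx4 in 5 of 6 libraries, and the ranges of Gpx1 and Gstm1, and of Gstm1 and Gpx4, overlapped. After them came a drop of 3.33-fold to Prdx1 (7.93 FPKM), then Txn1 (2.86 FPKM), Gclm (1.78 FPKM) and Gclc (1.34 FPKM). Gsr had 1.09 FPKM, Txnrd1 0.848 FPKM and Gss 0.442 FPKM. The ranges of Gclc and Gsr overlapped, as did those of Gsr and Txnrd1, although the order held in each of the 6 libraries. Both reductases, Gsr and Txnrd1, thus lay far below the peroxidases in every library.

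**Figure D1:**
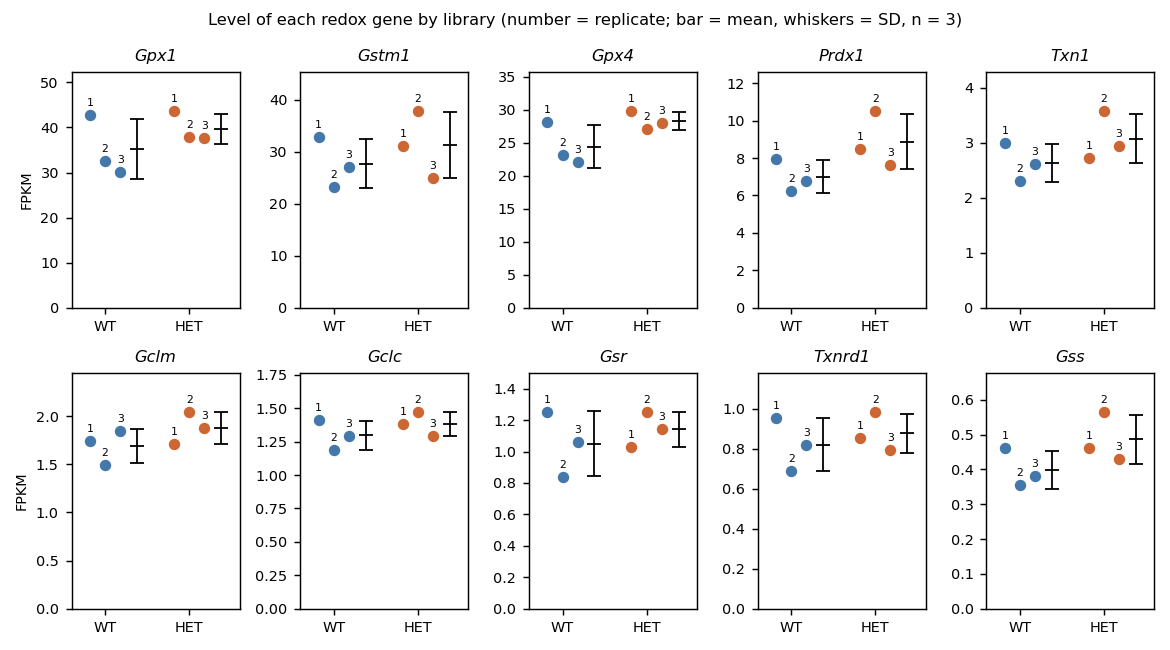
FPKM of each gene in wild-type (WT) and heterozygous (HET) libraries, 1 panel per gene with its own axis from 0; points are libraries numbered by replicate, the bar is the mean and the whiskers the SD (n = 3). In all 10 panels the points of the groups overlap; wild-type replicate 2 is the lowest library in 8 panels and heterozygous replicate 2 the highest in 7.

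None of the 8 tested members passed the test between heterozygous and wild-type cerebellum (limma, adjusted p under 0.05), and 5 of all tested genes did (0.0786%). Without limma's intensity trend none of the 8 passed either. At an unadjusted p under 0.05 there was 1 of the 8, Prdx1, with the trend and also without it, against 3.33% of all tested genes. All 10 members had the higher mean in the heterozygous group as deposited; after median-of-ratios scaling 8 of 10 did, with Gclc and Txnrd1 turning to -0.015 and -0.008. These counts stand beside the 83.1% and 49.1% over all tested genes. The median difference was 0.13 over the 10 genes and 0.163 over the 8 tested ones, against 0.08 over all tested genes. After scaling these medians were 0.05 and 0.057, against -0.001. Over the 10 genes it was 0.056 without wild-type replicate 2 and 0.053 without heterozygous replicate 2. Differences are in mean log2(FPKM + 1), with the wild-type mean subtracted from the heterozygous one. Adding 1 shrinks the differences of low genes. With 0.1 added instead, the difference of Gss was 0.230 in place of 0.086. The median over the 10 genes was then 0.176, against 0.112 over all tested genes. In FPKM as deposited the groups overlapped for all 10 members, while 4.81% of tested genes had heterozygous values that all lay above wild type. After scaling, that share was 5.74%, and it held for Prdx1 and, among genes not tested, Gss.

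Prdx1, a cytosolic peroxiredoxin that reduces hydrogen peroxide with electrons from thioredoxin, had the largest difference of the 10. It measured 7.97, 6.25 and 6.77 FPKM in the wild-type libraries and 8.46, 10.5 and 7.64 in the heterozygous ones. Heterozygous replicate 2 was highest, and heterozygous replicate 3 lay below wild-type replicate 1, so the groups overlapped. The means were 7.0 ± 0.88 and 8.86 ± 1.46 FPKM (SD, n = 3 each), a ratio of 1.27. The log2 difference was 0.30 (SE 0.15), with an unadjusted p of 0.0465 and an adjusted p of 0.899 in limma, and a two-sided exact permutation p of 0.2. After scaling, the values were 7.38, 7.44 and 6.95 in wild type and 8.39, 9.22 and 7.74 in heterozygous libraries, which no longer overlapped. The scaled difference was 0.19 (SE 0.069; adjusted p = 0.780 by limma). Leaving out 1 library at a time gave 0.18 to 0.39, and leaving out replicate 2 of both groups gave 0.115. By rough estimate the counting error was 3.96% to 5.15% of the value.

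Txn1, the cytosolic thioredoxin, measured 2.99, 2.30 and 2.62 FPKM in the wild-type group against 2.72, 3.57 and 2.93 in the heterozygous group. Only heterozygous replicate 2 lay above the wild-type range. The means were 2.64 ± 0.35 and 3.07 ± 0.44 FPKM (SD, n = 3 each), which differed on the log2 scale by 0.16 (SE 0.12; adjusted p = 0.899 by limma), or 0.075 after scaling. Txnrd1, which passes electrons from NADPH to thioredoxin, measured 0.953, 0.687 and 0.820 FPKM in the wild-type group against 0.852, 0.982 and 0.794 in the heterozygous group. Heterozygous replicate 2 lay just above the wild-type range and the others within it, and the difference of 0.045 turned to -0.01 after scaling (two-sided exact permutation p = 0.5 as deposited). The level of Txn1 relative to Txnrd1 within a library is unchanged by median-of-ratios scaling. It was 3.14, 3.35 and 3.20 in wild type and 3.20, 3.64 and 3.68 in heterozygous libraries. That of Prdx1 relative to Txn1 was 2.67, 2.72 and 2.58 in wild type and 3.10, 2.93 and 2.61 in heterozygous libraries. Both ratios overlapped between the groups, each through 1 heterozygous library.

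Among the 10 members, heterozygous replicate 1 was the highest library only for the 2 glutathione peroxidases. This pattern was not theirs alone. Mgst3, a glutathione transferase named after its values were seen, measured 4.01, 3.32 and 3.01 FPKM in the wild-type group. In the heterozygous group it measured 4.45, 3.95 and 3.85 FPKM. Gpx1 measured 42.8, 32.6 and 30.2 FPKM in the wild-type group against 43.6, 37.8 and 37.6 in the heterozygous group. Replicate 1 of both groups was high, and heterozygous replicate 2, the highest library for most genes, was not. The means were 35.2 ± 6.7 and 39.7 ± 3.4 FPKM (SD, n = 3 each), which differed on the log2 scale by 0.18 (SE 0.17; adjusted p = 0.899 by limma) and 0.065 after scaling. Gpx4 measured 28.1, 23.1 and 22.1 FPKM in the wild-type group against 29.8, 27.1 and 28 in the heterozygous group, with wild-type replicate 1 the sole wild-type library within the heterozygous range. Its means were 24.4 ± 3.2 and 28.3 ± 1.4 FPKM (SD, n = 3 each), which differed on the log2 scale by 0.21 (SE 0.17; adjusted p = 0.899 by limma) and 0.10 after scaling. Without wild-type replicate 1 the difference was 0.33 for Gpx1 and 0.31 for Gpx4 (adjusted p = 0.331 by limma for both). In that setting 929 of 6309 tested genes had an unadjusted p under 0.05, among them Gpx1, Gpx4 and Prdx1. Without wild-type replicate 3 the differences were 0.08 and 0.15. The ratio of Gpx1 to Gpx4 within a library stayed between 1.34 and 1.53, at 1.44 ± 0.08 in wild type and 1.40 ± 0.06 in heterozygous libraries (SD, n = 3 each).

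Red blood cells are rich in Gpx1. The summed FPKM of 8 red cell markers was 395, 195 and 142 in wild type and 271, 220 and 159 in heterozygous replicates 1, 2 and 3. Replicate 1 was highest in both groups, and no marker was at 0 in any library. All 6 tested red cell genes had a lower heterozygous mean (median -0.11, or -0.22 after scaling), whereas Gpx1 and 83.1% of all tested genes had a higher one as deposited. The part of red cells in the level of Gpx1 was not tested. The genes whose log2 values followed Gpx1 most closely over the 6 libraries were Pax6, Mt3 and Nrep (Pearson r 0.994, 0.992 and 0.991), and those for Gpx4 were Bhlha9, Mrpl11 and Ndufb2 (0.992, 0.983 and 0.980). These correlations are descriptions over 6 libraries that share depth and scaling. Pax6 is also on the granule cell list, whose summed FPKM was 660, 577 and 617 in wild type. In heterozygous libraries the granule cell sum was 644, 616 and 651, and its part in the level of Gpx1 was not tested. An r over 0.9 was reached with 73 tested genes for each peroxidase, but with 1393 for Gstm1, 1444 for Prdx1 and 2013 for Gclc. The 2 peroxidases thus resembled fewer genes over the libraries than those 3.

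**Figure D2:**
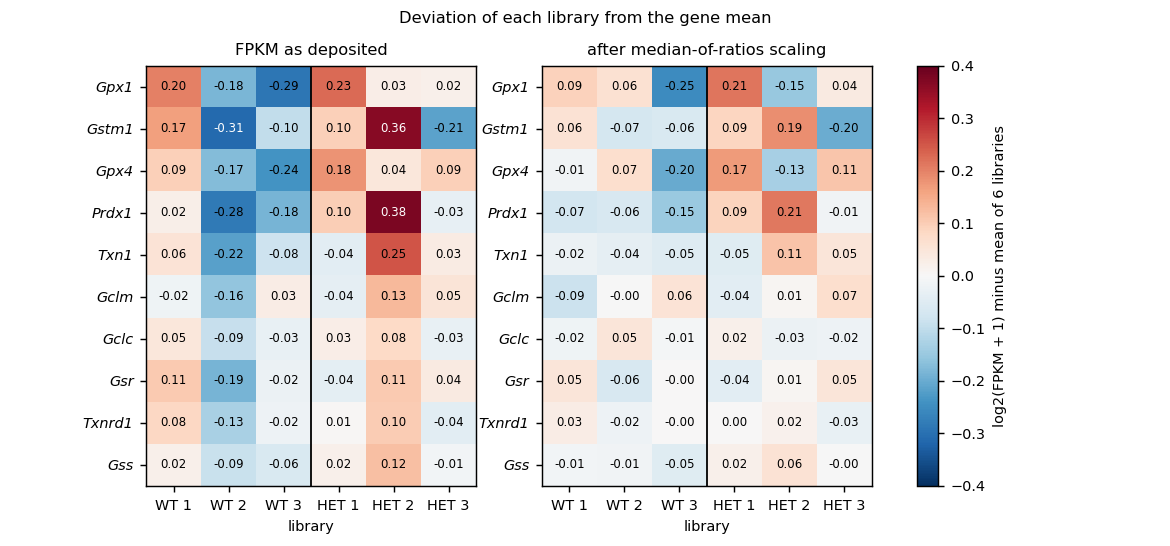
Deviation of log2(FPKM + 1) from the mean of the 6 libraries for each gene (rows) and library (columns), as deposited on the left and after median-of-ratios scaling on the right; red is above and blue below the mean. As deposited, wild-type replicate 2 is below the mean for every gene and heterozygous replicate 2 above it; after scaling, these columns lose their common sign and replicate 1 of the heterozygous group remains high for Gpx1 (0.21) and Gpx4 (0.17).

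Gstm1 varied more between libraries than between groups. It measured 32.8, 23.3 and 27.1 FPKM in the wild-type group against 31.2, 37.8 and 25 in the heterozygous group. Heterozygous libraries held both the highest value and the second lowest. The means were 27.7 ± 4.8 and 31.3 ± 6.4 FPKM (SD, n = 3 each), which differed on the log2 scale by 0.16 (SE 0.17; adjusted p = 0.899 by limma) and 0.05 after scaling. Leaving out 1 library at a time gave 0.02 (without heterozygous replicate 2) to 0.31 (without heterozygous replicate 3), with 0.05 without wild-type replicate 2 and 0.29 without wild-type replicate 1. Gstm1 is known in brain as an astrocyte enzyme. The summed FPKM of 13 astrocyte and Bergmann glia markers was 706, 488 and 581 in wild type and 683, 737 and 631 in heterozygous libraries. Both the sum and Gstm1 were lowest in wild-type replicate 2 and highest in heterozygous replicate 2. Those libraries were also the lowest for 78.4% and the highest for 56.3% of all tested genes. Heterozygous replicate 3 lay above wild-type replicate 3 in the sum but below it for Gstm1. The part of astrocytes in the level of Gstm1 was not tested.

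Of the genes of glutathione synthesis and recycling, Gclc, Gclm and Gsr were tested and none passed. Gclc measured 1.41, 1.19 and 1.29 FPKM in the wild-type group against 1.38, 1.47 and 1.29 in the heterozygous group, and the log2 group difference was 0.05 (SE 0.09; adjusted p = 0.905 by limma) and -0.015 after scaling. Its coefficient of variation over the 6 libraries, 7.63%, was the lowest of the 10 genes. Gclm measured 1.74, 1.49 and 1.84 FPKM in the wild-type group against 1.71, 2.04 and 1.88 in the heterozygous group, and the log2 group difference was 0.10 (SE 0.11; adjusted p = 0.899 by limma). In FPKM the modifier subunit exceeded the catalytic subunit in every library, by 1.30 ± 0.11-fold in wild type and 1.36 ± 0.11-fold in heterozygous cerebellum (SD, n = 3 each). This ratio depends on the transcript lengths used.

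Gss, the second enzyme of synthesis, measured 0.460, 0.355 and 0.381 FPKM in the wild-type group against 0.462, 0.564 and 0.431 in the heterozygous group. Its group ratio was 1.22, with heterozygous replicate 3 inside the wild-type range and a two-sided exact permutation p of 0.2. After scaling the wild-type values were 0.426, 0.423 and 0.391 and the heterozygous values 0.458, 0.497 and 0.436, which no longer overlapped. By rough estimate Gss rested on 18 to 29 reads per library, with a counting error of 18.5% to 23.3% per library. The scaled values spread less than that within each group, so these read numbers may be too low and set no bound. Gsr measured 1.25, 0.838 and 1.06 FPKM in the wild-type group against 1.03, 1.25 and 1.14 in the heterozygous group, and the log2 group difference was 0.07 (SE 0.09; adjusted p = 0.899 by limma) and 0.01 after scaling. The heterozygous values of Gsr lay inside the wild-type range.

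**Figure D3:**
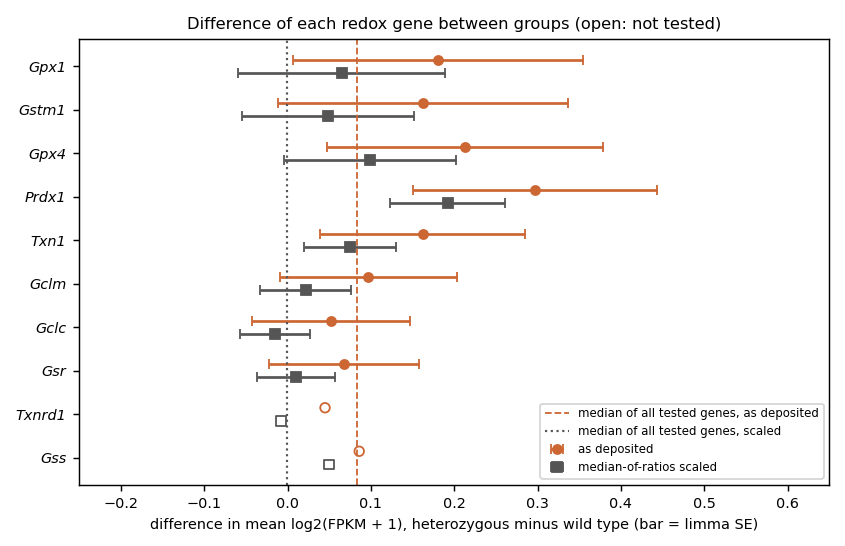
Difference of the group means of log2(FPKM + 1), with wild type subtracted, for each gene as deposited (circles) and after median-of-ratios scaling (squares); bars are limma's SE, open symbols are genes below the minimum for testing, and the dashed and dotted lines are the medians of all tested genes. Prdx1 lies farthest to the right on both scales (0.30 and 0.19), and Gclc and Txnrd1 change sign with the scaling.

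By their annotation in GENCODE M21 (GRCm38, equal to the mm10 of the files) all 10 are protein coding. Prdx1 (ENSMUSG00000028691) spans chromosome 4, 116685544 to 116700822, on the plus strand, and Txn1 (ENSMUSG00000028367) chromosome 4, 57943373 to 57956411, on the minus strand. Gpx1 (ENSMUSG00000063856) spans chromosome 9, 108338903 to 108340343, and Gpx4 (ENSMUSG00000075706) chromosome 10, 80047166 to 80056439, both on the plus strand. Txnrd1 (ENSMUSG00000020250) spans chromosome 10, 82833951 to 82897712, and Gclc (ENSMUSG00000032350) chromosome 9, 77754535 to 77794485, both on the plus strand. Gclm (ENSMUSG00000028124) spans chromosome 3, 122245557 to 122270732, on the plus strand, and Gstm1 (ENSMUSG00000058135) chromosome 3, 108012255 to 108017973, on the minus strand. Gss (ENSMUSG00000027610) spans chromosome 2, 155563181 to 155592810, on the minus strand, and Gsr (ENSMUSG00000031584) chromosome 8, 33652523 to 33698163, on the plus strand. Words of 73 bases, the read length after trimming, were compared between the longest coding transcript of each member and all other annotated genes. Gpx4 shared 55.8% of its words with the pseudogene Gpx4-ps2, Gstm1 15.3% with Gstm3, Gstm2-ps1 and Gm8834, and Prdx1 6.08% with Gm21399 and Gm7204. Reads of these stretches cannot be assigned with certainty, so the level of Gpx4 in particular is uncertain. Gss overlaps Acss2, Gssos1 and Gssos2 on the opposite strand, Gclm overlaps Gm6061 on its own strand and Gm17494 on the other, Gsr overlaps Gm24727, and Txnrd1 overlaps Eid3 on its own strand and Gm38560 and Gm47073 on the other. The library kit was a stranded one, and the strand setting of the quantification is not given in the sources used here.

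Around the 10 genes, 148 other genes were listed by role, of which 74 could be tested. Chac1 alone passed, and 69 of the 74 were higher on average in the heterozygous group (56 after scaling). Over all tested genes these shares were 83.1% and 49.1%. The median was 0.14 against 0.08 over all tested genes. Chac1, which degrades glutathione, was higher by 0.53 (SE 0.12, adjusted p = 0.0391 by limma, two-sided exact permutation p = 0.1). It measured 0.605, 0.760 and 0.770 FPKM in the wild-type group against 1.19, 2.73 and 0.849 FPKM in the heterozygous group. Its wild-type mean, 0.712 FPKM, lay below the minimum of 1 FPKM, so Chac1 entered the test only through its heterozygous values. It no longer passed in 9 of 14 alternatives, among them median-of-ratios scaling (difference 0.46, limma adjusted p = 0.780) and the omission of wild-type replicate 2 (difference 0.55, limma adjusted p = 0.633). With a minimum of 0.5 FPKM, no minimum and no intensity trend, its limma adjusted p was 0.941, 0.973 and 0.883. Without heterozygous replicate 2 its difference was 0.23, on a level too low to test. Of 9 tested genes for precursor supply and turnover, Chac1 passed as higher, none passed as lower, and all 9 had a higher heterozygous mean (8 after scaling; median 0.17). Slc7a11, the cystine transporter that supplies cysteine, was not tested and stood at 0.581 ± 0.210 and 0.541 ± 0.067 FPKM (SD, n = 3 each).

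The peroxiredoxins and their recycling enzymes had the highest median of the 10 lists, and none of them passed. All 5 tested genes had a higher mean as deposited and after scaling, as had 83.1% and 49.1% of all tested genes. Their medians were 0.23 and 0.13, against 0.08 and -0.001 over all tested genes. Prdx2, abundant in neurons and red cells, measured 40.7, 31.7 and 36.1 FPKM in the wild-type group against 44.0, 46.4 and 38.4 in the heterozygous group (difference 0.24, SE 0.17, limma adjusted p = 0.899). After scaling its wild-type values were 37.7, 37.7 and 37.1 and its heterozygous values 43.6, 40.9 and 38.9, which did not overlap. The mitochondrial Prdx3 had the smallest p of the list with a difference of 0.25 (SE 0.13), and Prdx6, a peroxiredoxin that uses glutathione, had 0.23 (SE 0.15). Srxn1, which repairs overoxidised peroxiredoxins, had 0.20 (SE 0.16). Prdx6 and Srxn1 turned to -0.002 and -0.02 without replicate 2 of both groups. Prdx4, not tested and named after its values were seen, stood at 0.598 ± 0.101 and 0.757 ± 0.101 FPKM (SD, n = 3 each).

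Other antioxidant lists held no gene that passed. The counts of higher means stand beside 83.1% of all tested genes as deposited and 49.1% after scaling. Of 8 tested glutathione transferases, 7 had a higher heterozygous mean, also after scaling (median 0.15), with Gstp1, the pi-class enzyme, at 33.4 ± 5.2 and 40.2 ± 4.7 FPKM, Gstm7 at 1.77 ± 0.42 and 2.17 ± 0.29 FPKM and Gstm2, the lower one, at 1.14 ± 0.63 and 1.05 ± 0.16 FPKM (SD, n = 3 each). Of 9 other thioredoxin system genes all had a higher mean (8 after scaling; median 0.13). Txnl4a, a splicing factor with a thioredoxin fold, was at 0.25 (SE 0.13), and Txnip, the thioredoxin inhibitor, at 0.14 (SE 0.14). Of 15 genes for selenoproteins and their synthesis 14 had a higher mean (10 after scaling; median 0.15), led by Selenoh at 0.23 (SE 0.14), with Lrp8, a receptor for both reelin and selenoprotein P, at -0.01 (SE 0.09). The 7 tested NADPH supply genes all had a higher mean (5 after scaling), with a median of 0.10 and the pentose phosphate enzyme Taldo1 at 0.22 (SE 0.15). Idh2, also on that list, lacked a usable value in heterozygous replicate 2 and was not tested. Nnt, a mitochondrial source of NADPH, was low at 0.314 ± 0.091 and 0.346 ± 0.046 FPKM (SD, n = 3 each).

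Among Nrf2, its regulators and other targets, 8 genes were tested and none passed. Of these, 7 had a higher mean (6 after scaling), with a median of 0.16 as deposited. The shares over all tested genes were 83.1% and 49.1%. Nfe2l2 itself, not tested, stood at 0.682 ± 0.178 and 0.722 ± 0.070 FPKM, and Keap1, which holds Nrf2 in check, at 4.07 ± 0.37 and 4.25 ± 0.33 FPKM (SD, n = 3 each); both differences turned below 0 after scaling. The target genes Hmox1 (0.391 ± 0.118 and 0.426 ± 0.069 FPKM) and Nqo1 (0.510 ± 0.137 and 0.583 ± 0.080 FPKM; SD, n = 3 each) were too low to test. Sqstm1, an autophagy receptor that binds Keap1, was at 0.27 (SE 0.17), and Mafg, a small Maf partner, at -0.05 (SE 0.12).

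**Figure D4:**
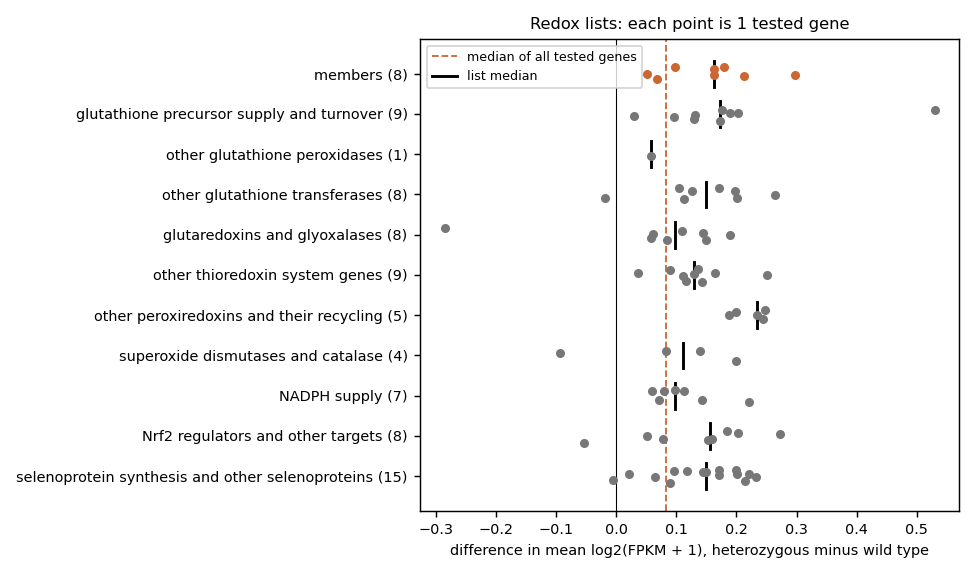
Difference of the group means of log2(FPKM + 1), with wild type subtracted, for each tested gene (points) of the 10 redox genes (members, orange) and 10 lists of related genes (grey), with the number tested in brackets; black bars are list medians and the dashed line is the median of all tested genes, 0.08. The far right point is Chac1 (0.53) and the far left point Glo1 (-0.29).

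Glo1 and Sod3 followed another pattern over the libraries. Glo1, a glyoxalase that uses glutathione to clear methylglyoxal, measured 11.6, 6.16 and 10 FPKM in the wild-type group against 7.78, 9.53 and 4.95 in the heterozygous group, a difference of -0.29 (SE 0.17; adjusted p = 0.899 by limma). Sod3, the secreted superoxide dismutase, measured 3.27, 1.22 and 2.21 FPKM in the wild-type group against 1.80, 2.56 and 1.52 in the heterozygous group. Wild-type replicates 1 and 3 and heterozygous replicate 2 were the highest libraries for both, and also for Gstm2 (1.79, 0.527 and 1.09 FPKM against 0.958, 1.24 and 0.960 FPKM). Gpx8, an endoplasmic reticulum peroxidase, measured 2.74, 1.03 and 1.93 FPKM against 2.03, 2.39 and 1.43 FPKM, with heterozygous replicate 1 above wild-type replicate 3. The summed FPKM of 10 choroid plexus markers was 290, 1.34 and 160 in wild type and 4.49, 165 and 8.03 in heterozygous libraries, with Folr1 at 0 in at least 1 library, and its part in these levels was not tested. Without replicate 2 of both groups, Glo1 and Sod3 passed as lower (-0.71 and -0.48, limma adjusted p = 5.55e-04 and 0.00305), with the remaining wild-type libraries being those with high marker sums. Of 8 glutaredoxins and glyoxalases 7 had a higher mean (4 after scaling), with a median of 0.10 as deposited. So had 3 of 4 superoxide dismutases and catalase (3 after scaling), with a median of 0.11 as deposited, and none passed. These counts stand beside 83.1% of all tested genes as deposited and 49.1% after scaling. Gpx8, the sole other peroxidase tested, was at 0.06, which turned to -0.01 after scaling. Hagh, the second glyoxalase, was at 0.19 (SE 0.14), Sod1 at 0.20 (SE 0.16), and the peroxisomal catalase gene Cat at 0.08 (SE 0.12). The plasma peroxidase Gpx3 was low at 0.178 ± 0.061 and 0.216 ± 0.058 FPKM (SD, n = 3 each).

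Of the 11 marker lists, 10 for cell types and 1 for nuclear long noncoding RNAs, the summed levels of the groups overlapped in all. The ranges in wild type and heterozygous libraries were 577 to 660 and 616 to 651 FPKM for granule cells, 257 to 351 and 333 to 351 for Purkinje cells, 55.5 to 71.8 and 69.1 to 74.8 for interneurons, and 160 to 249 and 209 to 277 for myelin. They were 8.73 to 15.5 and 12 to 21.3 FPKM for microglia, 12.7 to 22.7 and 14.5 to 18.6 for endothelium and pericytes, 148 to 305 and 229 to 321 for meninges, and 451 to 710 and 320 to 452 for the nuclear RNAs. In the nuclear RNA list all 5 tested genes had a lower heterozygous mean, also after scaling (median -0.54 as deposited). Of these, 4 had an unadjusted p under 0.05 and none passed. The 4 tested choroid plexus genes were lower as well, 3 of them with an unadjusted p under 0.05 (median -0.78, or -0.80 after scaling). All 5 tested microglia genes were higher, 3 with an unadjusted p under 0.05 (median 0.29, or 0.20 after scaling), as were all 10 tested myelin genes, 2 with an unadjusted p under 0.05 (median 0.26, or 0.15 after scaling). None of these genes passed in limma. Over all tested genes, 83.1% had a higher heterozygous mean (49.1% after scaling), and 3.33% had an unadjusted limma p under 0.05. The part of these lists in the levels of the redox genes was not tested.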

How the data were processed

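Deposited FPKM values, 1 library per file, were made by the authors as follows, per the labels' protocols. Mitochondrial and ribosomal sequence was removed, reads of 75 bases lost 2 bases at the start, alignment was to mm10 with TopHat2 and Bowtie, and Cufflinks gave FPKM. The authors' own test (Cuffdiff 2.1.1) was not used, and their annotation release is not given in the sources used here. Since FPKM divides by library size, an RNA class that fills more of a library lowers the rest. In heterozygous replicate 2, 40 values read as dates and were left out. The genes concerned, Idh2 among them, were not tested, which left 24497 genes with a value in every library.

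The test covered genes averaging 1 FPKM or more, on log2(FPKM + 1) with limma 3.58.1 (R 4.3.3, intensity trend, Benjamini-Hochberg adjustment over 6358 genes, threshold 0.05), which was tested on simulated data. Its SE rests mostly on genes of like level (54.4 prior against 4 residual degrees of freedom). Relative depths came from the spacing of values under 0.5 FPKM. Absolute depths came from a scan for whole read numbers over 3680 single-transcript genes. Its peak was weak, with a score of 0.066 per library against a median of -0.039. Reads per gene use these depths and the longest coding transcript, so they are rough and set no bounds. Counting errors follow from these reads and cover sampling only. Other steps used Python 3.11.15 with scipy 1.17.1.

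The 10 genes, the lists and the rule for named genes were chosen with earlier results of these data known. The rule took the 10 genes, 16 others by name, the tested gene with the smallest p in each direction of each list, and any list gene that passed.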

Additional observations from a re-analysis of the deposited data

How the results depend on the processing

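The choices varied were the scaling, the pseudocount, the minimum level, limma's trend, the replicate block and the libraries used. No member passed the threshold in any of the 14 alternatives in which it was tested, with adjusted p from 0.241 to 1.00; Gss was not tested in 13 of them and Txnrd1 in 12. Gclm, Gss, Gpx1, Gpx4, Txn1 and Prdx1 kept their direction in all of them. The median over the 10 genes was 0.005 without replicate 2 of both groups, against 0.13, and 0.053 to 0.184 without 1 library. In that setting several genes turned below 0: Gclc (-0.009), Gsr (-0.043), Gstm1 (-0.093), Txnrd1 (-0.049), Nnt (-0.042), Nfe2l2 (-0.071), Keap1 (-0.040), Hmox1 (-0.049), Nqo1 (-0.025), Srxn1 (-0.020), Txnip (-0.091), Prdx6 (-0.002), Gpx3 (-0.004), Sod1 (-0.001), Cat (-0.107), Gpx8 (-0.285) and Taldo1 (-0.001). Median-of-ratios scaling turned Gclc (-0.015), Txnrd1 (-0.008), Nfe2l2 (-0.005), Keap1 (-0.043) and Gpx8 (-0.010), quantile normalization turned Keap1 (-0.034), and a pseudocount of 0.1 turned Gstm2 (0.028). Leaving out 1 library at a time gave -0.008 to 0.138 for Gsr, -0.009 to 0.097 for Txnrd1, -0.049 to 0.194 for Cat, -0.178 to 0.264 for Gpx8, -0.239 to 0.196 for Gstm2, -0.016 to 0.103 for Hmox1, -0.047 to 0.035 for Lrp8, -0.142 to 0.005 for Mafg, -0.041 to 0.112 for Nfe2l2, -0.014 to 0.086 for Nnt, -0.139 to 0.051 for Slc7a11 and -0.340 to 0.131 for Sod3. Over all genes, the 5 calls became 0 with either scaling, with a minimum of 0.5 FPKM or without the trend, 1 with no minimum, 13 with the replicate block, 67 without replicate 2 of both groups, and 5 to 62 without 1 library. Deviations from the group means correlated at -0.28, -0.52 and 0.14 between the libraries numbered 1, 2 and 3, which shows no pairing by number. These values carry the library-wide offsets, so they cannot exclude such a pairing. The block changed no member's call. The cause of these changes was not tested.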
